A study of Hippoglossus hippoglossus with 15 samples.

Results

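A set of 100 transcripts of Atlantic halibut, a marine flatfish, had their highest level at the 10-somite stage (10SS) on the 2 arrays used to choose them, out of 10180 probe names on a custom Agilent oligonucleotide array. Levels are log2 of the processed spot intensity minus the 75th percentile of its array, so that 0 is that percentile and 1 unit is a 2-fold difference. The rule took the mean of 10SS replicates 1 and 2. This mean had to be above -4 and more than 1.5 above the mean of hatched larvae (HT), and the excess was its distance above the highest of the 8-cell (8CS), germ ring (GR) and HT means. The 100 largest values of excess were kept. In all, 210 probes met both limits and 138 of these had 10SS above every other stage mean. The rule also set aside 2 probes by name and did not use 10SS replicate 3, whose values are given apart.

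RNA came from whole embryos and larvae of farmed females' eggs, fertilized with pooled sperm and kept in large incubators, although the study's methods describe a separate collection for the comparison of egg quality. High quality embryos, from egg batches that fertilized and hatched well, were sampled with 3 arrays each at 8CS (8 hours post fertilization, hpf), GR (82 hpf), 10SS (142 hpf) and HT (340 hpf). Embryos of low quality, from batches with low fertilization and hatching, were measured at 8CS only (8 hpf, 3 arrays). The 15 samples were labelled with Cy3 and hybridized in 1 colour on 5 slides. Each array measured pooled whole embryos, so fewer cells of a type and less RNA per cell cannot be told apart.

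At the 10-somite stage the first blocks of the body axis, the somites, have formed, and they later give rise to muscle and vertebrae. The embryo still lives on its yolk. Maternal RNA dominates at 8CS, and the embryo's own transcription is under way by GR. The described transcripts of this set include several metabolic enzymes, a transporter and a junction protein. The study states that the liver is still absent in hatched halibut embryos, and any link of these transcripts to organ formation was not tested. Only 20 of the 100 probes have a gene description in the study's tables, which rest on sequence similarity, and 80 have none. Roles stated below are those known mainly from mammals and zebrafish.

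The share of probes well above background was 70.5% to 91.2% per array, and no spot was saturated. One array stood apart, and whether it holds embryos of its labelled stage was not tested, which bears on every value of replicate 3. 10SS replicate 3 correlated at 0.861 and 0.865 over all probes with 10SS replicates 1 and 2, which correlated at 0.991 with each other, and at 0.941 to 0.944 with the 3 GR arrays. Replicates 1 and 2 correlated at 0.951 to 0.958 with the HT arrays and at 0.797 to 0.813 with the GR arrays, whereas replicate 3 correlated at 0.809 to 0.811 with the HT arrays. The 42 probes in the copy of the study's GR list used here, which is shorter than the list the study describes, had a median level of 0.22 to 0.37 on the GR arrays, -3.65 and -3.74 on 10SS replicates 1 and 2, and -1.61 on replicate 3. Replicate 3 shared its slide with the 3 HT arrays, while 10SS replicates 1 and 2 each shared a slide with a GR array.

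In the 2 arrays of the rule the set stood far above its level at 8CS and GR and less far above its level at HT. Its median level was 1.08 and 1.21 in 10SS replicates 1 and 2, from -5.15 to -4.84 on the 8CS arrays, from -4.12 to -3.30 on the GR arrays and from -1.24 to -0.91 on the HT arrays, where the median of all probes stayed between -2.77 and -2.37. The median excess over the next highest stage was 1.92, with a range of 1.39 to 5.70. That next stage was HT for 83 members, GR for 10 and 8CS for 7. These values chose the members and carry no test. Replicates 1 and 2 differed by a median of 0.13 and lay within 0.5 of each other for 97 members, and the other 3 were HH_Contig2245, HH_90599141 and HH_90596820. All 100 members were well above background on both arrays and 97 on all 3 HT arrays, but 21 were so on no 8CS array and 22 on no GR array. Within the slide that replicate 1 shared with a GR array the median of 10SS minus GR was 4.03, and within that of replicate 2 it was 4.09, on the arrays that the rule used.

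**Figure D1:**
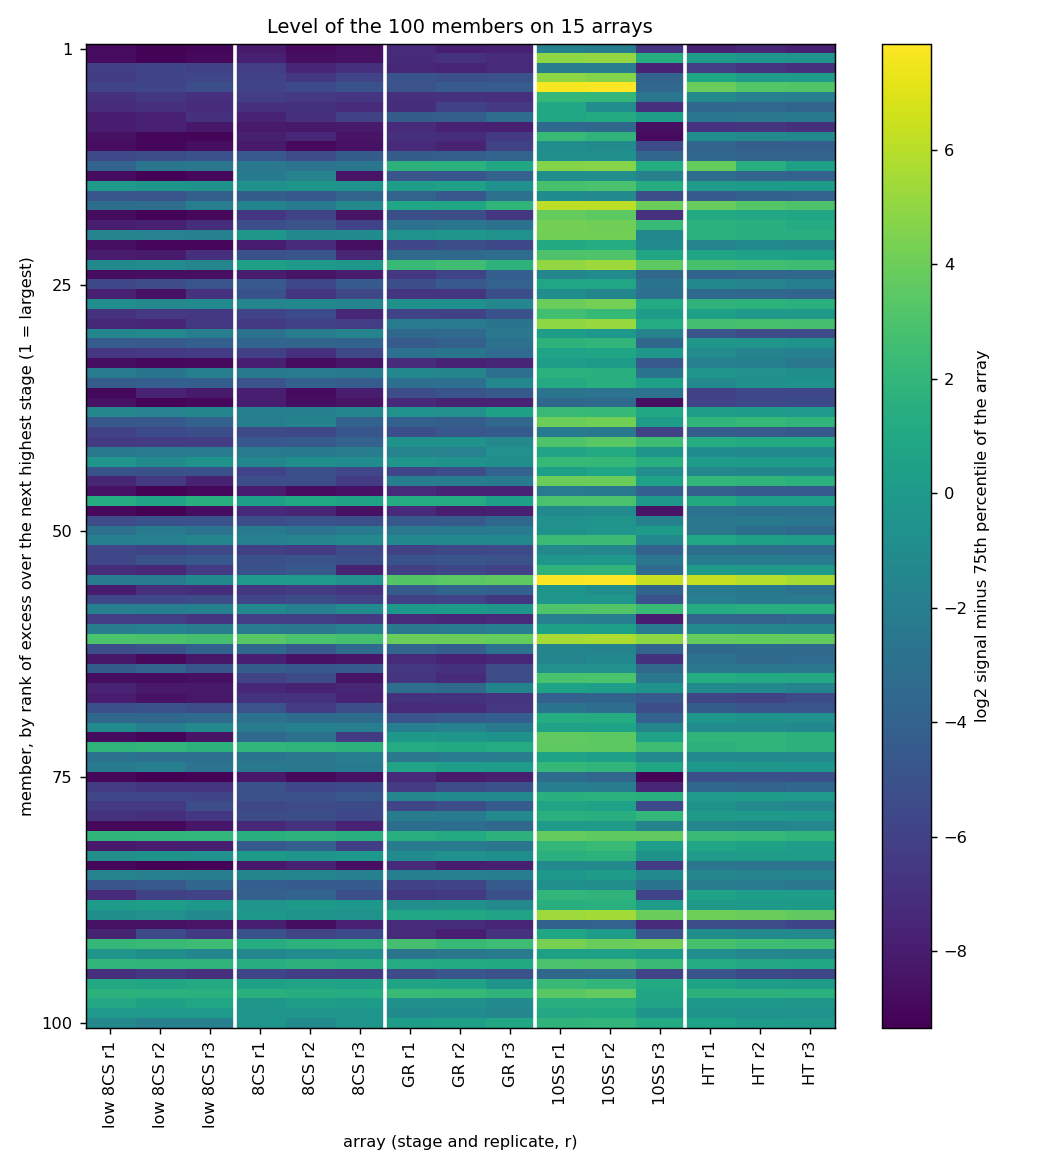
Level of the 100 members (rows, by rank of excess) on the 15 arrays (columns, by group and replicate r), in log2 signal minus the 75th percentile of the array. 10SS replicates 1 and 2 form the brightest pair of columns, and the HT columns come next. 10SS replicate 3 is below both replicates 1 and 2 for 96 of the 100 members. The members were chosen on replicates 1 and 2, which favours both patterns.

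The label of a transient transcript held only in part. At HT a median of 46.2% of the log2 rise from GR to 10SS was left, and HT stayed more than 1 above GR for 65 members, within 1 of GR for 34 and more than 1 below GR for 1. The set is therefore described by its maximum at 10SS in 2 arrays. When arrays were scaled to the added control RNA (spike-in) instead, the median difference over all probes ranged from -0.91 (10SS replicates 1 and 2 against HT) to 2.40 (HT against GR). All 100 members kept the mean of replicates 1 and 2 above the other stages, and their median excess was 1.28.

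The rule placed first HH_90598196, described as slc22a2, a carrier of organic cations in the kidney of mammals. It was at -1.82 and -2.07 in 10SS replicates 1 and 2 and at -6.75 in replicate 3. Its 8CS arrays were at -8.09, -8.90 and -8.56, its GR arrays at -7.30, -7.89 and -7.76 and its HT arrays at -7.85, -7.47 and -7.83. No 8CS or GR array and 1 HT array was well above background, so replicates 1 and 2 were at least 19.9-fold above GR, a bound that takes the lowest signal well above background on each dim array. The bound is below the measured 37-fold excess of HH_Contig1475, so its first place is not established. The transcript was near background at every other stage and low in replicate 3.

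For the 5 members without a description that had the largest excess, HT was the next highest stage. HH_Contig1475 was at 4.96, 5.04 and 1.30 in 10SS replicates 1 to 3, at 0.18, -0.36 and -0.43 at HT, at -7.26, -6.91 and -7.24 at GR and at -7.87, -8.71 and -8.49 at 8CS. HH_90600752 was at 7.67, 7.79 and -3.65 at 10SS, at 3.90, 3.31 and 3.17 at HT, at -4.96, -4.43 and -4.32 at GR and at -5.80, -5.58 and -4.99 at 8CS. Both were far higher at HT than at GR, but in replicate 3 HH_Contig1475 was above every HT array and HH_90600752 close to GR. HH_90601074 was likewise far below HT in replicate 3. It was at 4.92, 4.69 and -3.85 at 10SS, 0.31 ± 0.39 (SD, n = 3) at HT and -5.03 ± 0.15 at GR. Its replicate 3 was 1.18 above the GR mean, where that of HH_90600752 was 0.92 above. HH_Contig2302 was at 2.11, 2.07 and -2.61 at 10SS, -1.69 ± 0.38 at HT and -6.97 ± 0.06 at GR. HH_90603981 was low outside replicates 1 and 2, at -2.04, -2.09 and -7.68 at 10SS against -6.66 ± 0.39 at HT, where 2 of 3 arrays were well above background.

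At the edge of the set the excess was 1.42 for HH_94963222, 1.41 for HH_90988114 and 1.39 for HH_Contig1912, and just outside it 1.37 for HH_Contig2318, 1.31 for HH_90596691 and 1.30 for HH_505608. Nothing but rank parted these from each other.

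Enzymes that make free glucose were among the described members. Fructose-bisphosphatase 1 (fbp1, HH_Contig485), a controlling enzyme of gluconeogenesis, was at 7.73, 7.85 and 6.41 in 10SS replicates 1 to 3, at 6.28, 5.91 and 5.57 at HT, at 3.22, 3.42 and 3.56 at GR and at -0.02, -0.03 and -0.63 at 8CS. Its level was higher at each stage from 8CS to 10SS and still high at HT, and replicate 3 was above all HT arrays. The catalytic subunit of glucose-6-phosphatase (g6pc, HH_90599141), which releases glucose in the last step of that pathway, was at -0.89, -1.46 and -3.05 at 10SS, at -3.47, -3.58 and -3.73 at HT, at -6.75, -6.69 and -5.25 at GR and at -5.04, -6.76 and -5.66 at 8CS. Inositol monophosphatase 1 (impa1, HH_Contig2121), which frees inositol, was at 4.64, 4.75 and 1.28 at 10SS, and its HT arrays spread over 3.77, 1.45 and 0.40. For impa1 the first HT array lay closer to 10SS than the other HT arrays did, and replicate 3 lay among the GR arrays (1.67, 1.63 and 0.90).

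Enzymes acting on other small molecules peaked likewise in replicates 1 and 2, but not alike in replicate 3. Hydroxysteroid dehydrogenase hsd17b14 (HH_Contig1516), which oxidizes steroids, was at 2.85, 2.89 and 1.29 at 10SS against 0.14, 0.03 and 0.05 at HT and 0.22, 0.50 and -0.67 at GR. Diamine acetyltransferase sat2 (HH_Contig2012) was at 1.15, 1.50 and 0.49 at 10SS against -1.23, -0.73 and -0.54 at HT. In both, replicate 3 was above each array of the other stages. Kynurenine 3-monooxygenase (kmo, HH_Contig903), of tryptophan breakdown, was at 0.47, 0.36 and -2.28 at 10SS against -1.39 ± 0.10 (SD, n = 3) at HT and -2.27 ± 0.26 at GR. HIU hydrolase (HH_90604223), of uric acid breakdown, was at -3.25, -3.67 and -9.20 at 10SS and at -5.12, -5.05 and -5.17 at HT, with no 8CS or GR array well above background. In replicate 3 kmo thus lay among the GR arrays and HIU hydrolase was not well above background.

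Calcium, junction, secretory and signalling transcripts made up most of the rest. Secretagogin (HH_90601756), a calcium-binding protein of hormone-secreting cells, was at 0.95, 1.14 and 0.32 at 10SS, at -2.61, -2.45 and -2.39 at HT, at -4.25, -4.17 and -3.18 at GR and at -7.67, -7.00 and -5.94 at 8CS. All 3 of its 10SS arrays were above every other array. Claudin 15 (HH_90605076), a tight junction protein of the gut, was at -1.0, -1.16 and -5.21 at 10SS, with stage means of -4.21 to -3.84 elsewhere, so replicate 3 was below all of them. The stress-associated endoplasmic reticulum protein serp1 (HH_Contig977), which guards new membrane proteins, was abundant throughout, at 5.63, 5.74 and 4.94 at 10SS and 3.03 ± 0.33, 3.88 ± 0.10 and 3.76 ± 0.03 at 8CS, GR and HT (SD, n = 3). The vitamin K epoxide reductase-like vkorc1l1 (HH_Contig306) was at 3.45, 3.69 and 0.82 at 10SS against 2.09 ± 0.22 at GR, lower in replicate 3 than at any other stage.

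Transglutaminase 2 (tgm2, HH_90604905), which cross-links proteins, was at 4.19, 4.18 and -1.34 at 10SS, at 1.63, 1.49 and 1.44 at HT and at -0.47 ± 0.17 (SD, n = 3) at GR. The differentiation and stress gene ndrg1 (HH_90607492) was at -0.46, -0.87 and -3.84 at 10SS and -2.52 ± 0.30 at HT. Both were lower in replicate 3 than on any HT array. The membrane-bound aminopeptidase xpnpep2 (HH_90607525), which removes the residue before a proline, was at 0.63, 0.84 and -0.26 at 10SS and -1.50 ± 0.38 at HT. The cell cycle phosphatase cdkn3 (HH_94963222) was at 1.45, 1.44 and 0.67 at 10SS and 0.03 ± 0.27 at 8CS, its next stage. In this pair replicate 3 lay between replicates 1 and 2 and the next stage. Of the described members without a clear role, the c16orf14 homolog (HH_90606308) was at 5.03, 5.30 and 3.59 at 10SS and 2.67 ± 0.16 at HT. HH_90606050 was at -0.67, -0.68 and -3.43 against -2.45 ± 0.02, and HH_90604064 at -0.72, -0.70 and -3.68 against -3.67 ± 0.13. HH_Contig1223, named after a schistosome egg protein, was at -2.00, -2.09 and -7.60 at 10SS and -3.69 ± 0.15 at HT, and was not well above background in replicate 3.

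**Figure D2:**
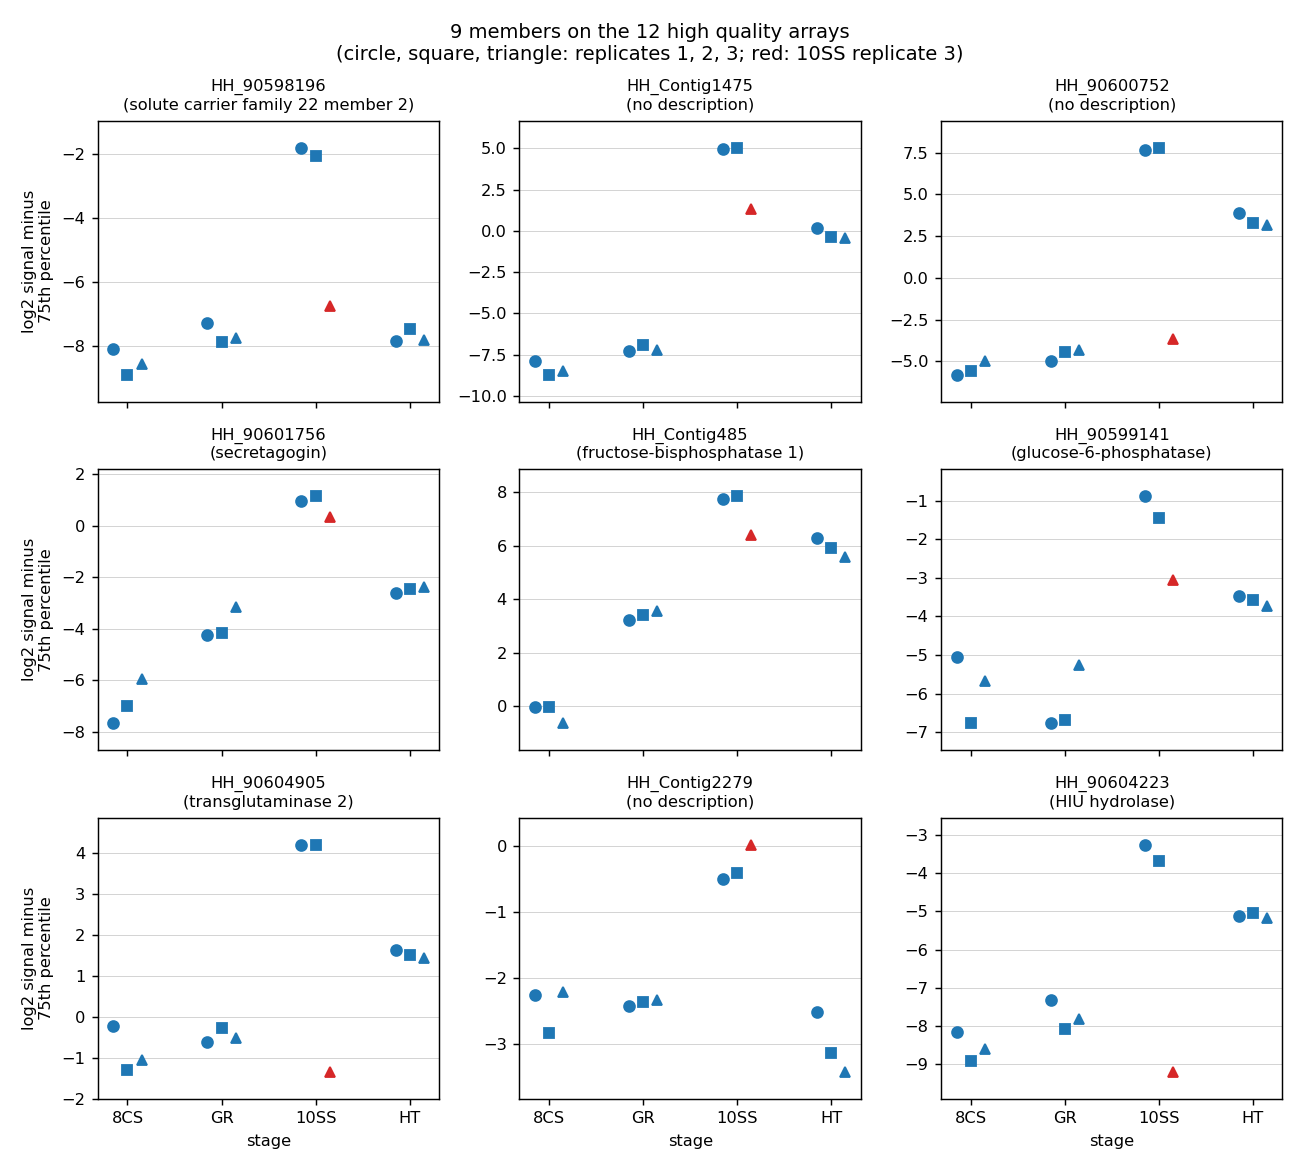
Level of 9 members (log2 signal minus the 75th percentile of the array) on each high quality array, by stage. Circles, squares and triangles are replicates 1, 2 and 3, and 10SS replicate 3 is in red: it was above every HT array for secretagogin (0.32) and HH_Contig2279 (0.02) and below every HT array for transglutaminase 2 (-1.34), HH_90600752 (-3.65) and HIU hydrolase (-9.20).

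10SS replicate 3 is the array labelled 10SS that the rule did not use. Most members were higher in it than at GR, and more of them were lower than higher against HT. Its median level over the set was -1.56, below the HT medians and above the GR medians of -4.12 to -3.30. It was below replicates 1 and 2 for 96 members, where 37.5% of all probes were so. Members were chosen for high values on replicates 1 and 2, which favours this count, so that share is not a like baseline. The limma fit held the 12 high quality arrays with replicate 3 as a group of its own, and assumed that this single array varies like the other groups. The means at 8CS, GR and HT entered the rule as ceilings, which keeps them low for members, so the counts below are not free of the choice. Called means an adjusted p under 0.05 (Benjamini-Hochberg) and at least a 2-fold difference.

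Against GR, 57 of 100 members were called higher in replicate 3 and 6 lower, where 12.9% and 12.5% of the 9283 probes tested were. Among those lower, HH_90604223 and HH_90603096 were not well above background in replicate 3 or on any GR array, and HH_Contig1223 was not in replicate 3. For HH_90604223 the difference of -1.47 turned to 0.09 under spike-in scaling and 0.01 with the deposited log2 value table. That of vkorc1l1, -1.27, turned to 0.28 under spike-in scaling. The median difference was 1.40 for members and -0.04 for all probes. Under spike-in scaling all probes shifted upward as well, with medians of 2.96 for members and 1.52 for all probes. Against 8CS the spike-in medians were 3.17 and 1.26. Against 8CS, 59 were called higher and 3 lower (26.9% and 25.3% of all probes). Against HT, on the same slide, 17 were called higher and 31 lower (24.5% and 20.5%), with median differences of -0.35 for members and 0.27 for all probes. Higher than 8CS, GR and HT at once were 13 members, where 1.89% of all probes were. Replicate 3 was above each of the 9 arrays of the other stages for 39 members (12.7% of all probes) and below each HT array for 52 (38.7%). It was not above the highest GR array for 25 members (64.4%). Under spike-in scaling the calls against HT were 5 higher and 52 lower (5.02% and 39.4% of all probes). Under normexp background correction 6 members in place of 57 were called above GR, where 0.635% of all probes were, and 22 in place of 59 above 8CS, where 10.4% were. The higher level of the GR-listed probes in this array, given above, goes with these values, and its part in them was not tested.

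As a share of the rise from GR to the mean of replicates 1 and 2, replicate 3 stood at a median of 41.8% over the members. The same median was 33.4% over the 2280 probes that were more than 1 above GR in replicates 1 and 2. GR and replicates 1 and 2 chose the members, whose median rise was 4.04. The 2 medians are therefore not matched, and no conclusion is drawn from their difference. The members spread widely, with a share below 10% for 29, from 10% to 75% for 59 and above 75% for 12.

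The members highest in replicate 3 were secretagogin, HH_Contig2279 and HH_90596788, measured as replicate 3 minus the highest other stage mean (2.80, 2.40 and 2.13). Secretagogin was 6.98-fold above HT (difference 2.80, SE 0.58, adjusted p = 0.00236 by limma). HH_Contig2279 was at -0.50, -0.41 and 0.02 in 10SS replicates 1 to 3 and at -2.51, -3.14 and -3.42 at HT, a difference of 3.04 (SE 0.34, adjusted p = 5.53e-05 by limma). HH_90596788 was at 1.58, 1.45 and 2.02 at 10SS and at -0.08, -0.02 and -0.21 at HT, a difference of 2.13 (SE 0.37, adjusted p = 0.000872 by limma). These last 2 were higher in replicate 3 than in replicates 1 and 2. Of the described members, hsd17b14 and serp1 were also called above HT, by 1.21 and 1.18. Under other settings these differences fell as low as 0.14 and 0.11.

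The lowest in replicate 3 were HH_90987980, HH_90603096 and HH_90600752. HH_90987980 was at 3.80, 3.53 and -6.89 at 10SS and at 1.12, 0.94 and 0.85 at HT (difference -7.86, SE 0.83, adjusted p = 3.99e-05 by limma). HH_90603096 was at 2.22, 1.84 and -8.82 at 10SS and -0.93, -1.25 and -1.33 at HT, and was not well above background in replicate 3. HT was thus at least 111-fold higher (adjusted p = 6.60e-07 by limma). HH_90600752 was 138-fold lower in replicate 3 than at HT (difference -7.11, SE 0.38, adjusted p = 8.42e-07 by limma). All 3 were high in replicates 1 and 2 and at HT, and within 2 of their GR mean in replicate 3. Among the described members called below HT in this array were tgm2 (-2.86), ndrg1 (-1.33), HIU hydrolase (at least 7.2-fold) and HH_Contig1223 (at least 15.1-fold), while claudin 15 was 1.11 below without a call.

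**Figure D3:**
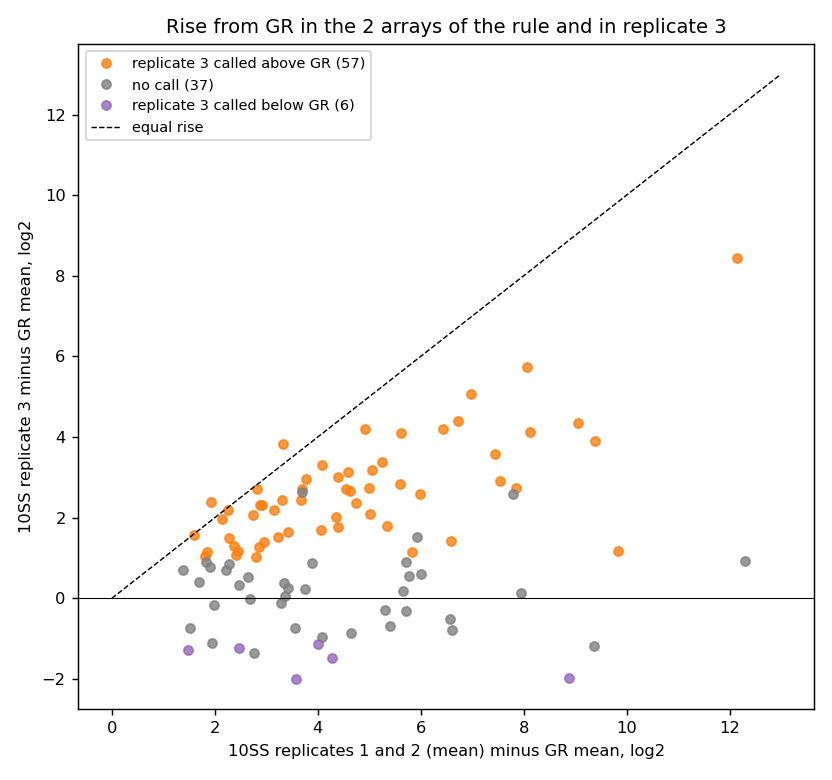
Each point is 1 of the 100 members, with the mean of 10SS replicates 1 and 2 minus the GR mean on the x axis and 10SS replicate 3 minus the GR mean on the y axis, both in log2 units. Some points rest on signals not well above background in replicate 3 or at GR. The choice of members on replicates 1 and 2 favours a smaller rise in replicate 3. Nearly all points lie under the dashed line of equal rise, 57 are called above GR (orange), 37 have no call (grey) and 6 are called below GR (purple).

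The means at 8CS, GR and HT all entered the rule, and 16 members were well above background on no 8CS or GR array and passed the filter through other arrays. The order of these stages is therefore given as a description, with counts of limma calls beside those of all probes and no support drawn from them. The set stood lowest at 8CS and GR and higher at HT. Between HT and GR, 57 members were called higher at HT and 1 lower, where 26.6% and 31.4% of all probes were. Every HT array was above every GR array for 78 members (36.4% of all probes), and the median difference was 1.84 against -0.22 over all probes. Between HT and 8CS, 65 were called higher and 1 lower (31.8% and 32.1%). These fits pooled the spread of all 4 stages, that of the unlike 10SS arrays included. With replicate 3 left out the counts of members higher at HT were 65 and 72 (27.4% and 32.7% of all probes). The HT arrays shared their slide with no array but 10SS replicate 3, so with slide as a fixed block, which leans on that array, 90 and 93 were called higher (30.9% and 31.1% of all probes). Under normexp background correction these counts were 16 and 24 (11.2% and 13.7%), and under spike-in scaling 99 members and 79.4% of all probes were called higher at HT than at GR.

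Among the members called higher at HT than at GR, HH_90600752, whose values are given above, was 261-fold higher (difference 8.03, SE 2.35). HH_Contig1467 was at 1.27, 1.18 and 1.04 at HT and at -6.69, -7.21 and -5.43 at GR, with 1 GR array well above background (difference 7.61, SE 1.32). HH_Contig1475 was not well above background on any GR array, so HT was at least 66.4-fold higher, and the place of this bound among measured differences, such as the 103-fold of HH_90987980, is not known. HH_Contig2274 was at -6.41, -6.04 and -6.25 at 8CS, where 1 array was well above background, and at 2.68, 2.82 and 2.78 at HT (difference 8.99, SE 0.81). HT was 483-fold above 8CS for HH_90600752. Of the described members fbp1 (2.52, SE 0.37), g6pc, xpnpep2, sat2, secretagogin and HH_90606050 were also called higher at HT than at GR. Under normexp background correction the difference of g6pc turned from 2.63 to -0.35, without a call. The others kept their direction under every setting, but that of secretagogin fell as low as 0.08.

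The only member called lower at HT than at GR and at 8CS was HH_Contig1083. It was at 0.25, -0.20 and -1.67 in 10SS replicates 1 to 3, at -4.79, -5.37 and -5.35 at HT, at -3.54, -3.48 and -2.56 at GR and at -2.94, -2.15 and -1.63 at 8CS. Its difference between HT and GR was -1.97 (SE 0.51), which turned to 0.65 under spike-in scaling and 0.04 with slide as a fixed block, without a call in either.

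Between 8CS and GR the set differed less. Here 27 members were called higher at GR and 2 lower, where 21.6% and 20.7% of all probes were, with a median difference of 0.57 against 0.14. With 10SS replicate 3 left out the counts were 32 and 9 (23.3% and 23.0% of all probes). Under normexp background correction 5 were called higher (8.84% of all probes) and the median difference of members turned to -0.18. On the slide that held a high quality 8CS array and a GR array, 72 of 100 members were higher at GR (58.3% of all probes) and the median difference was 0.76. Called higher were HH_Contig606 (at least 18.4-fold), HH_Contig1227 (at least 12-fold) and impa1. HH_Contig606 was at -3.22, -3.41 and -1.60 at GR and not well above background at 8CS. impa1 was at -2.49, -2.83 and -2.60 at 8CS, a difference of 4.05 (SE 0.96). The 2 called lower were HH_90606610, at -1.36, -1.04 and -0.90 at 8CS and -2.71, -2.51 and -2.26 at GR (difference -1.39, SE 0.26), and HH_90606050, at least 2.74-fold higher at 8CS.

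**Figure D4:**
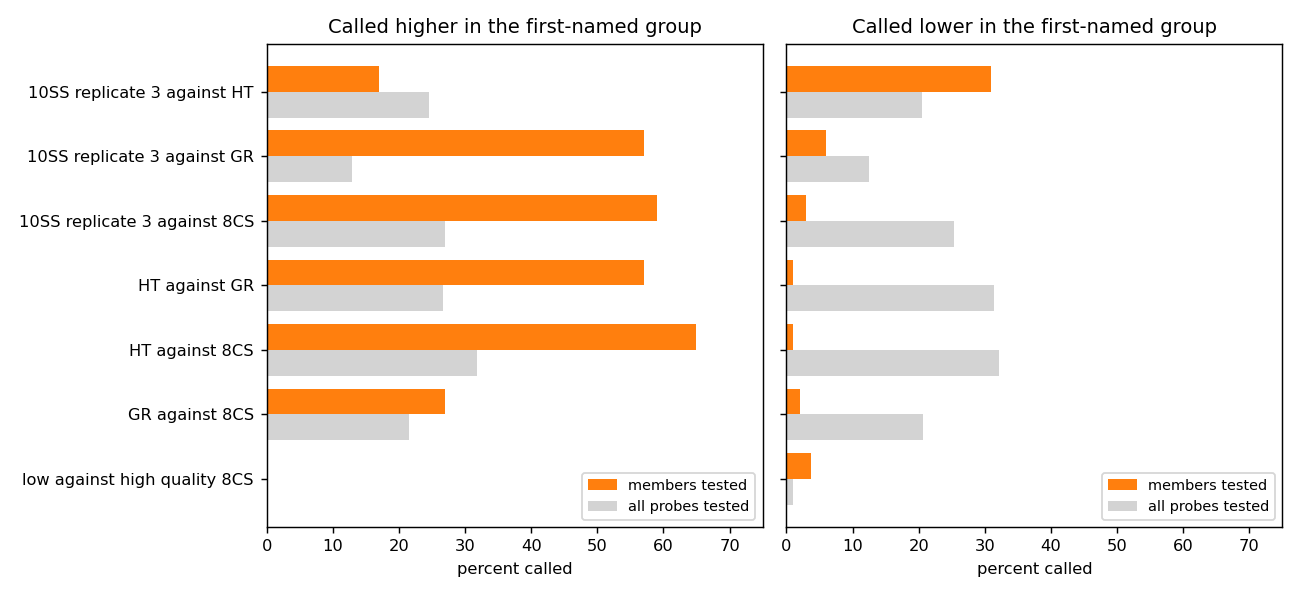
Share of the members tested (orange) and of all probes tested (grey) that limma called higher (left) or lower (right) in the first-named group, in percent, for 7 comparisons. The stage comparisons are a description, since the rule used those means. They were ceilings in the comparisons of replicate 3 and of quality too, so all probes are not a like baseline in any row. On the left, members exceed all probes most in 10SS replicate 3 against GR and fall furthest below them in 10SS replicate 3 against HT. On the right, members fall furthest below all probes in HT against 8CS (1 of 100 members lower, 32.1% of all probes).

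The low quality arrays took no part in the rule, although the high quality 8CS mean was one of its ceilings. The study describes another site, feed and incubation for its quality comparison than for its stages. Which collection the high quality 8CS arrays came from is not settled, so rearing and egg quality cannot be told apart here. A few members were lower in low quality 8CS embryos. Of 81 members tested, 3 were called lower and 0 higher, where 1.01% and 0.16% of the 8737 probes tested were, and 30 members (37.0%) had an unadjusted p under 0.05, as did 31.1% of all probes. HH_Contig655 was at -4.67, -4.48 and -3.92 on the high quality arrays and at -6.44, -6.37 and -6.22 on the low quality arrays (difference -1.99, SE 0.23, adjusted p = 0.0247 by limma). HH_90601210 was at -5.24, -4.90 and -5.87 against -7.88, -7.83 and -7.07 (difference -2.26, SE 0.34, adjusted p = 0.0405 by limma). HH_90596788 was at -5.38, -5.22 and -5.65 against -6.81, -7.04 and -6.59 (difference -1.40, SE 0.20, adjusted p = 0.0405 by limma). In each the groups did not overlap, but of the 3 low quality arrays only 1 was well above background for HH_90601210 and 2 for HH_90596788. Of the described members, fbp1 was at -2.35, -2.28 and -1.33 on the low quality arrays (difference -1.76, SE 0.34, adjusted p = 0.0654 by limma) and the c16orf14 homolog at -1.12, -1.06 and -1.55 (difference -1.28, SE 0.25, adjusted p = 0.0686 by limma), both without overlap but not called. Over the set, every low quality array was below every high quality array for 25 of the 81 members (19.8% of all probes) and above for 9 (18.3%). The median difference was -0.35 for members and -0.06 for all probes, but for members it turned to 0.05 under quantile normalization, 0.05 with the deposited log2 value table and 0.40 under spike-in scaling, where 14 members were called higher and 5 lower (24.1% and 2.37% of all probes). Without high quality replicate 3 the count of members called lower was 15 of 80, where 7.27% of all probes were, in place of 1.01%. It was 0 without high quality replicate 1 or 2, low quality replicate 1 or 2, and with slide as a fixed block.

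High quality 8CS replicate 3 differed from replicates 1 and 2 in part of the set. For 11 members replicates 1 and 2 were more than 1 above both replicate 3 and every low quality array, where 4.71% of all probes were. HH_Contig1987, chosen after its values were seen, was at -2.20 and -1.66 in high quality replicates 1 and 2, at -8.44 in replicate 3 and at -8.77, -9.20 and -9.00 in the low quality arrays. Its low quality replicate 1 shared a slide with high quality replicates 1 and 2. Within that slide the median of low minus high quality over the 100 members was -0.44, and within the slide of replicate 3 it was -0.33.

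The copy of the study's 10SS list used here holds 44 probes, fewer than the list the study describes, and 21 of them are members. The list was chosen on these samples, 10SS replicate 3 among them. Neither this overlap nor the calls by role below are therefore independent support, and the share of all probes is not a like baseline for those calls. The rule set 2 of the other 23 aside by name, and the remaining 21 had an excess of 0.42 to 2.77 but missed a limit of the rule, 20 that on the difference from HT and 4 that on the level. Against HT, replicate 3 differed in both directions among the described probes of this copy, for example malate dehydrogenase (-1.77) and secretagogin (2.80). By role, described probes of this copy fall into 7 groups, whose calls of replicate 3 above GR compare with 12.9% of all probes. Of carbohydrate metabolism 3 of 5 are members and 2 of 5 were called higher in replicate 3 than at GR. The secretory pathway and endoplasmic reticulum had 2 members of 7 and 4 such calls, and small-molecule metabolism 4 members of 5 and 2 calls. Transport, junction and calcium had 3 members of 3 and 1 call, and signalling and cytoskeleton 3 members of 6 and 1 call. Peptidases had 1 member of 2 and 1 call, and mitochondrial proteins 0 members of 4 and 1 call.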

How the data were processed

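Single-colour hybridizations of 15 samples (4 stages of high quality embryos and low quality 8CS embryos, 3 arrays each) were read from the deposited scanner files. Per the file headers, the authors extracted spot intensity with Agilent Feature Extraction 10.7.1.1. The processed signal of that software is a background-adjusted intensity. The deposited log2 value table of the series, which holds 9017 probes, 96 members among them, served as an alternative. Control spots and outlier spots were left out, log2 intensities were set to the 75th percentile of each array, and copies of a probe were averaged (4 to 5 copies for members). A probe was tested where any array had it at the 20th percentile or higher (9283 of 10180 for stages, 8737 for quality).

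Linear models with moderated variances (limma 3.58.1, R 4.3.3) gave p-values, which were adjusted by Benjamini-Hochberg over every probe tested. The fit of replicate 3 held 5 groups, stage fits held 4, and the quality fit held the 6 8CS arrays. A call required an adjusted p under 0.05 and at least a 2-fold difference. "At least" folds set the mean of the brighter group against the higher of the dim probe's signal and the lowest signal well above background on each dim array. The study's methods give 3 batches of eggs for each group, but the labels do not say which sample is which batch or whether batches share parents, so p-values measure the spread between these samples. Precision is limited by how few arrays each group has. On simulated data with the layout of the test of replicate 3 against HT, 10180 probes and 100 changed probes of each size, 45% of changes of 1.5 and 93% of changes of 3 on the log2 scale were recovered, with 8 false calls. The simulation drew independent noise for each probe, so it cannot show false calls from a deviation of replicate 3 as a whole. It also changed only a small part of the probes, whereas a large part was called in the data. Recovery and false calls in the data can therefore differ from these values. Members, gene lists and named genes were chosen with earlier results of these data known. Named genes were the described members, the members without a description with the largest excess, those at the edge of the set, and those with the largest differences or calls in each comparison. The files gave no probe sequence, and the accessions of the 20 described members matched 0 entries of the gene table used. Alternatives were normexp background (offset 50), quantile and spike-in scaling, other filters and summaries, the value table, slide and replicate blocks, and leaving out single arrays. The numbers in the sample titles were not taken to pair samples (see the correlations given with the alternatives).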

Additional observations from a re-analysis of the deposited data

How the results depend on the processing

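Replicate 3 was called above HT for 17 members and below it for 31. These counts were 5 and 6 under normexp background correction (10.3% and 8.29% of all probes). They were 5 and 52 under spike-in scaling (5.02% and 39.4%). Under normexp, 6 members in place of 57 were called above GR in replicate 3, 22 in place of 59 above 8CS, 5 in place of 27 higher at GR than at 8CS, 16 in place of 57 higher at HT than at GR and 24 in place of 65 higher at HT than at 8CS. In an alternative chosen after seeing the data, outlying local backgrounds were replaced. The median difference of members in replicate 3 was then -0.04 against HT, 0.57 against GR and 0.59 against 8CS. Over all probes these median differences were 0.36, -0.45 and -0.37. Fewer members, and fewer of all probes, than in the main fit were called above GR and 8CS there. More of both were called below GR. GR was called above 8CS for 20 members (15.5% of all probes), HT above GR for 28 (16.2%) and HT above 8CS for 43 (21.5%). The count of HT above GR was 99 under spike-in scaling (79.4% of all probes). It was 90 when slide was a fixed block (30.9%) and 89 when it was a random one (30.6%). The causes were not tested. With slide as a fixed block, replicate 3 against GR or 8CS could not be estimated. The 3 members lower in low quality 8CS embryos were 0 under normexp, quantile normalization and the log2 value table. They were also 0 with the replicate block and with slide as a fixed block. Under spike-in scaling 5 were lower (2.37% of all probes) and 14 higher (24.1%). With a filter on probes well above background in a whole group 6 were lower (1.73%).

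Applied again, the rule kept 37 of the 100 members under spike-in scaling, where only 75 probes met its limits, and 39 with all 3 10SS arrays. The median excess of the original 100 members was 1.28 and 1.19 in these settings, in place of 1.92. The excess turned negative for HH_90604223 under normexp (-0.05), and with all 3 10SS arrays for HH_90604223 (-0.26), HH_Contig1223 (-0.21), HH_90987980 (-0.82), HH_90603096 (-0.42) and HH_Contig1467 (-0.06). It was above 0 for 94 of 100 members under normexp and for 88 with all 3 arrays.

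With 1 array left out at a time, the median difference of members in replicate 3 was -0.41 to -0.18 against HT. It was 1.34 to 1.40 against GR and 1.84 to 1.98 against 8CS. GR was called above 8CS for 26 to 32 members (19.4% to 23.3% of all probes). HT was called above GR for 45 to 65 (25.2% to 27.4%) and above 8CS for 57 to 72 (30.1% to 32.7%). Low quality embryos were lower for 0 to 15 members, the highest without high quality 8CS replicate 3, where 7.27% of all probes were. The rule kept 90 to 100 members, and the median excess of the original 100 members was 1.89 to 1.96.

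With the replicate number as a block, replicate 3 was called above HT for 21 members (22.8% of all probes) and below it for 34 (20.6%). It was called above GR for 54 (12.1%) and above 8CS for 56 (27%). GR was called above 8CS for 27 (22%), HT above GR for 57 (26.6%) and HT above 8CS for 65 (31.9%). In this setting 0 members were called lower in low quality embryos (0.183% of all probes). Same-numbered arrays of different stages had deviations that correlated at -0.22 to 0.57, with 7 of 18 pairs over 0.1, and those of the qualities at -0.11 to 0.01. The value of 0.57 was that of 8CS replicate 3 with 10SS replicate 3, while stage pairs of other numbers lay between -0.54 and 0.42. The numbers were therefore not taken to pair samples, but these values do not show that samples were unpaired. Depth of signal limits the set where probes are dim: 21 members were not well above background on any 8CS array and 22 on any GR array.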
